A study of Mus musculus with 96 samples.

Results

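The genes described here are the mouse zinc finger genes whose symbol is Zfp followed by a number. They were chosen by RNA level, as the 250 such genes with the highest summed RNA counts in wild-type neural tubes, out of 365 numbered Zfp genes and 22422 genes in all. Wild-type RNA therefore chose the members, and their wild-type RNA levels are given as a description only. The tissue was the neural tube of mouse embryos at E11.5. Mutant embryos (C3HeB/Eif3cXs-J/+) carried 1 copy of the Xs-J allele of Eif3c, which encodes a subunit of the initiation factor eIF3, and wild-type embryos were C3HeB. Dissociated cells of each pool, from 1 litter per preparation, were divided between RNA-seq of poly(A) RNA and ribosome profiling, a method that reads the stretches of mRNA covered by ribosomes. There were 3 pools per genotype and 12 libraries in all. Separate litters for each pool are not stated in the labels, and the p-values therefore cover the spread among pools, which may be technical.

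C2H2 zinc finger proteins read DNA through repeated fingers, each a short fold held by a zinc ion bound to a pair of cysteines and a pair of histidines. Many also carry a KRAB box, which recruits the corepressor Trim28 and leads to repressive chromatin, and the large KRAB zinc finger group is best known for silencing transposable elements and guarding imprinted genes. Other numbered Zfp proteins act in neural development, bind RNA or work in ribosome assembly and surveillance. Many KRAB zinc finger genes lie in clusters that arose by duplication, so their coding sequences can resemble each other.

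The name held up against the coding sequence. Of the 236 members with a coding sequence in the annotation, all but 5 held at least 1 C2H2 pattern, with a median of 10.5 fingers and up to 36. The 5 without a match were Zfp330, Zfp451, Zfp503, Zfp703 and Zfp839. A KRAB-type box was matched in 103. Chromosome 7 held 64 members (25.6%, against 7.67% of all genes tested) and chromosome 17 held 32 (12.8%, against 4.83%). At the edge of the choice, Zfp773, Zfp458, Zfp708, Zfp551 and Zfp235 had 299, 297, 291, 284 and 280 summed wild-type RNA counts. Just outside stood Zfp120, Zfp449, Zfp69, Zfp94 and Zfp14, with 279, 270, 262, 256 and 255 counts.

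Coding GC, the share of G and C bases in the coding sequence, was lower at the median in the members than in the other genes. Its median was 48.8% in the members (range 35.2 to 69.4%), against 53.3% in the other genes tested. Of the members, 35.6% had a coding GC under 45%, against 11.1% of the other genes. Low coding GC was not particular to the members, since other genes with a KRAB-type box had a median of 40.3% (107 genes). In steps of 2 percentage points, the members' shares were highest from 42 to 44% (10.6%), with 9.32% from 48 to 50% and 8.90% from 58 to 60%.

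**Figure D1:**
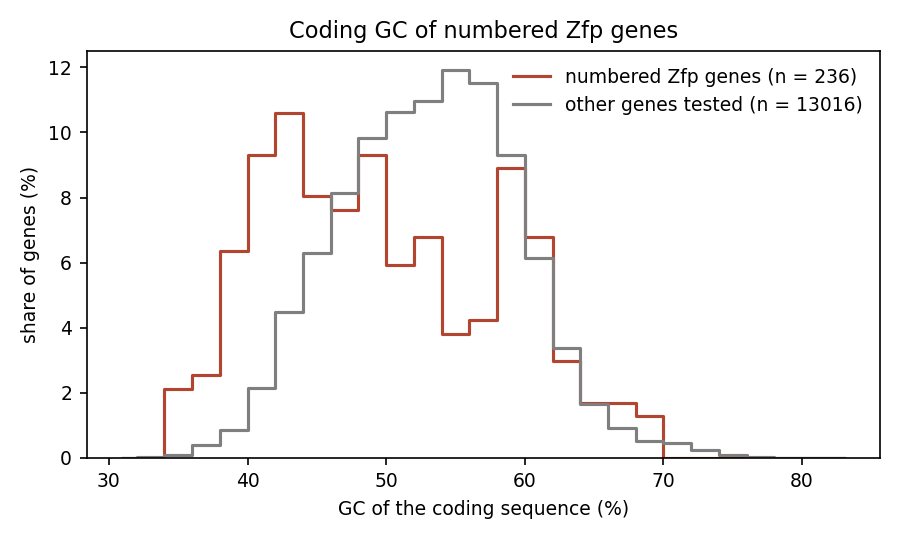
Share of genes (percent, y) in steps of coding GC (percent, x) for 236 numbered Zfp genes and 13016 other genes tested. The numbered Zfp genes have a median of 48.8% and the other genes one of 53.3%.

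A finger shows what this spread in base composition looks like. Below is the first finger and linker with the pattern of the consensus unit in 4 of the members named below for their footprints, of which none passed the adjusted threshold, out of 172 members that hold one. In Zfp558 and Zfp974, footprints were lower in every mutant pool, and in Zfp568 and Zfp771 they were higher in every mutant pool. Sequences are 5′ to 3′ on the coding strand from GENCODE vM21 transcripts, capitals mark a G or C at the third position of a codon, and positions are on mm10.
Zfp558 (exon 8, minus strand, chr9:18456942-18457019): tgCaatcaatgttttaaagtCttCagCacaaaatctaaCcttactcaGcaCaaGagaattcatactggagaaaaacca
Zfp974 (exon 4, minus strand, chr7:27911921-27911998): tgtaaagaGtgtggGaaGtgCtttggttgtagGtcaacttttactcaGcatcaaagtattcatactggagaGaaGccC
Zfp568 (exon 10, plus strand, chr7:30022892-30022969): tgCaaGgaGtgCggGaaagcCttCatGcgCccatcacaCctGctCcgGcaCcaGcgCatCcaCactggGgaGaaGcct
Zfp771 (exon 3, plus strand, chr7:127253856-127253933): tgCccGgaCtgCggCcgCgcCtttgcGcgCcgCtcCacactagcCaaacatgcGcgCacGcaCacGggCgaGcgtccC
Of the 26 codons, 8 end in G or C in Zfp558, 9 in Zfp974, 21 in Zfp568 and 20 in Zfp771. The GC of the whole coding sequence was 41.0% in Zfp558, 42.1% in Zfp974, 52.4% in Zfp568 and 69.4% in Zfp771.

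Depth and sample checks were as follows. Coding counts came to 9.57 to 13.1M per mutant RNA library and 7.20 to 13.1M per wild-type RNA library, and to 11.3 to 14.8M per mutant footprint library and 17.3 to 59.2M per wild-type footprint library. Eif3c RNA averaged 296 ± 5.88 CPM in mutant pools and 496 ± 22.1 CPM in wild-type pools (SD, n = 3 each), with a log2 change of -0.75 ± 0.06 (SE, edgeR adjusted p = 6.15e-04). Neural tube markers summed to 4232 to 4519 CPM in mutant RNA and 4709 to 4806 CPM in wild-type RNA. Mutant pool 1 stood apart in blood and vessel markers, and in footprints also in mesenchyme markers. Its erythroid markers summed to 6501 CPM in RNA, mutant pools 2 and 3 had 3441 and 2867 CPM, and wild-type pools had 2753 to 3408 CPM. Its endothelial markers summed to 634 CPM, mutant pools 2 and 3 had 380 and 386 CPM, and wild-type pools had 395 to 446 CPM. In footprints the erythroid sum was 14269 CPM in mutant pool 1 and 8128 to 9913 CPM in the other 5 pools, and the endothelial sum was 828 CPM in mutant pool 1 and 461 to 582 CPM in the others. Mesenchyme markers summed to 2019 CPM of footprints in mutant pool 1, 1388 and 1277 in mutant pools 2 and 3, and 1118 to 1307 in wild-type pools, and their RNA sums overlapped between genotypes (685 to 1001 CPM in the mutant, 576 to 983 CPM in wild type). None of these markers was at 0 in any library, and their part in the results below was not tested.

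The choice by RNA counts sets the members' RNA level, so nothing is read from it. Per kilobase of counted coding sequence, the members' median was 22.5 CPM in mutant RNA and 22.7 CPM in wild-type RNA, against 23.1 and 23.0 CPM over all genes tested. In wild type, 126 members lay below the median of all genes, and the range ran from 4.76 to 299 CPM per kilobase. The highest was Zfp207, a microtubule-binding protein of spindle assembly, at 318 ± 11.3 CPM per kilobase in the mutant and 299 ± 4.40 in wild type (SD, n = 3 each). Zfp664 followed at 211 ± 12.4 in the mutant and 215 ± 15.1 in wild type. Zfp41, Zfp462 and Zfp219 came next, at 135 ± 7.35, 133 ± 4.16 and 127 ± 7.99 CPM per kilobase in wild type, and their levels lay within each other's spread. Zfp462 is a regulator of chromatin needed in early neural development, and Zfp219 is a transcriptional repressor. The other members of the 10 highest were Zfp422, Zfp503, Zfp266, Zfp428 and Zfp146, at 125, 114, 111, 107 and 103 CPM per kilobase in wild type.

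Footprints per mRNA, the ratio of footprints to RNA on a gene's coding sequence relative to the typical gene, were low for most members. The test was made within the mutant, whose RNA and footprints were not used to choose the members. With edgeR, 175 of 250 members had fewer footprints per mRNA at an adjusted p under 0.05, where 35.5% of all genes tested did, and 29 had more, where 35.6% of all genes did. The median was -0.60 on the log2 scale, against 0.03 over all genes tested. In wild type the same median was -0.46, against 0.01 over all genes, given without a test because wild-type RNA chose the members. The members' median was steady between pools, at -0.59, -0.60 and -0.57 in mutant pools 1, 2 and 3, and -0.44, -0.49 and -0.45 in wild-type pools 1, 2 and 3. The mutant pools were all below the wild-type pools, but wild-type RNA is a term of this comparison and chose the members, so nothing is read from it.

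At the low end stood Zfp810 (mm10 chromosome 9, 22276748 to 22307648), a KRAB gene, with log2 footprints per mRNA of -3.02, -3.17 and -2.91 in mutant pools 1, 2 and 3 and -2.94, -2.91 and -2.90 in wild-type pools 1, 2 and 3. Its pools of both genotypes overlapped. Its value in the mutant was -3.17 ± 0.13 (SE, edgeR adjusted p = 7.52e-11). Zfp523, the mouse counterpart of the transcription activator ZNF76, stood at -2.44, -2.32 and -2.76 in mutant pools and -2.74, -2.95 and -2.73 in wild-type pools. Its value in the mutant was -2.55 ± 0.10 (SE, edgeR adjusted p = 3.37e-11). Zfp605 was lower in every mutant pool, at -2.67, -2.26 and -2.23, than in every wild-type pool, at -2.21, -2.02 and -1.87. The others of the 8 lowest in wild type were Zfp932, Zfp692, Zfp950, Zfp236 and Zfp408, with values in the mutant of -2.89, -2.11, -2.71, -1.88 and -1.78, all past the threshold. Zfp944, Zfp948, Zfp946 and Zfp983, all on chromosome 17, had fewer footprints per mRNA than the typical gene within the mutant, at -2.29, -2.07, -2.02 and -1.97.

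At the high end Zfp319 (mm10 chromosome 8, 95323011 to 95331950) stood at 1.24, 1.12 and 0.95 in mutant pools and 0.86, 0.69 and 0.78 in wild-type pools, with no overlap. Its value in the mutant was 1.12 ± 0.09 (SE, edgeR adjusted p = 3.36e-08). Zfp593, whose yeast relative helps to export the large ribosomal subunit, stood at 1.08, 0.59 and 0.54 in mutant pools and 0.71, 0.71 and 0.44 in wild-type pools, which overlapped. Besides Zfp319, the 8 highest in wild type held Zfp84, Zfp87, Zfp41, Zfp773 and Zfp703, with values in the mutant of 0.74, 0.66, 0.65, 0.69 and 0.70. Zfp563 and Zfp37, the other two, stood at 0.31 and 0.26 in the mutant. These 2 lost the call when mutant pool 3 was left out, at 0.21 and 0.16, and Zfp563 also without wild-type pool 1 (0.31) and with all lanes summed (0.29). Zfp580, Zfp553 and Zfp282 had more footprints per mRNA than the typical gene within the mutant, at 0.71, 0.68 and 0.67.

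**Figure D2:**
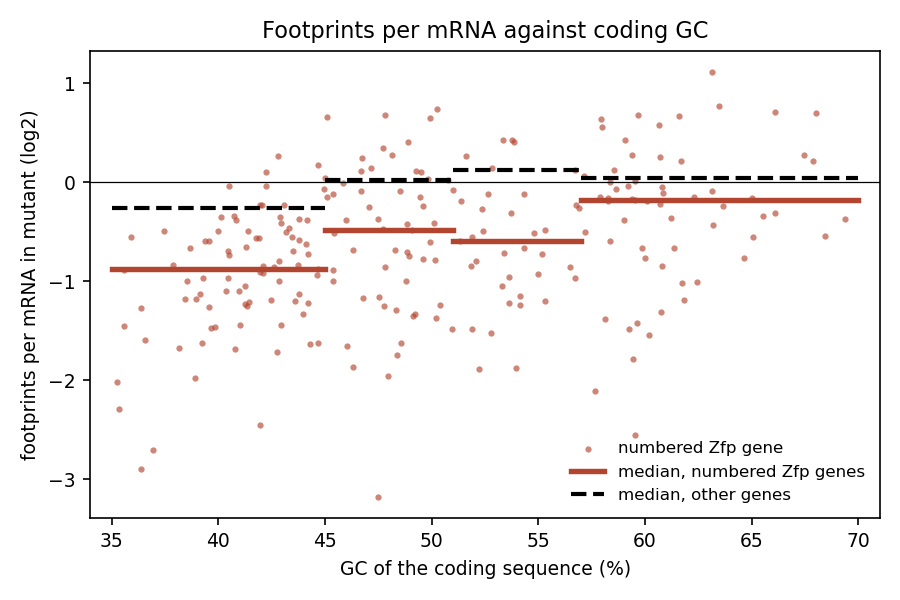
Log2 footprints per mRNA in the mutant (y) against coding GC (percent, x), with a point for each numbered Zfp gene and lines for medians in 4 classes of GC. The numbered Zfp genes lie below the other genes in each class, by the most under 45% (-0.88 against -0.26) and from 51 to 57% (-0.59 against 0.13).

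In the mutant, footprints per mRNA were lowest among members of low coding GC, and in each class of GC their median was below that of the other genes. The members' median was -0.88 under 45% GC (84 members), -0.48 from 45 to 51% (55), -0.59 from 51 to 57% (37) and -0.18 at 57% and over (60). The other genes in the same classes had medians of -0.26, 0.03, 0.13 and 0.04. In wild type the members' medians had no such order, at -0.58, -0.32, -0.67 and -0.37, against -0.05, 0.11, 0.09 and -0.12 in other genes. Of the members under 45% GC, 75 of 84 had fewer footprints per mRNA in the mutant, and 1 had more, where 47.4% and 24.7% of other genes in that class did. At 57% and over, 28 of 60 had fewer and 15 had more, where 34.6% and 35.3% of other genes did. Across members, Spearman's rho between coding GC and footprints per mRNA was 0.37 in the mutant and 0.09 in wild type (236 genes, which share libraries and base composition). With offsets that remove the trend on GC from each library, 151 members had fewer and 34 more, where 34.2% and 37.3% of all genes did.

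Further features of the transcripts moved with footprints per mRNA. Members with a KRAB-type box had a median of -0.70 in the mutant (103 members, median GC 44.2%), and those without one had a median of -0.49 (133 members, median GC 53.6%). Low values were shared by like genes outside the numbered Zfp group: other genes with a KRAB-type box had a median of -1.0 (107 genes, median GC 40.3%), with 78 lower and 4 higher. With 4 to 9 fingers the median was -0.54 in 73 members and -0.54 in 140 other genes. At 10 to 14 fingers it was -0.58 in 85 members and -0.78 in 73 other genes. At 15 or more it was -0.77 in 49 members and -1.19 in 39 other genes. At 0 to 3 it was -0.08 in 29 members and 0.05 in 12764 other genes. Genes named Zkscan or Zscan had a median of -0.51, with 13 of 20 lower, and Zbtb genes had one of -0.32, with 23 of 39 lower. No test of a difference between the members and these genes was made. Members with 4 or more ATG triplets upstream of the coding sequence had a median of -1.14, and 41 of 48 had fewer footprints per mRNA. Members with none had a median of -0.47, with 59 of 90 lower. In other genes the corresponding medians were -0.50, with 55.7% lower, and 0.25, with 24.4% lower. Upstream ATGs were found in 61.9% of members and 49.2% of other genes.

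Footprints before the start codon were also a larger part of the whole in the members. The median share of footprints in the 5′ untranslated region, out of that region and the coding sequence, was 19.6, 16.4 and 19.4% in mutant pools and 14.8, 15.97 and 16.4% in wild-type pools for the members. In other genes it was 13.4 ± 1.23% in mutant pools and 11.8 ± 0.23% in wild-type pools (SD, n = 3 each). The same share in RNA was 6.45 ± 0.28% in mutant pools and 6.39 ± 0.04% in wild-type pools for the members (SD, n = 3 each). For other genes it was 6.60 ± 0.34% and 6.53 ± 0.10%. Zfp664, with 11 upstream ATGs, had a mean of 76.9% of such footprints in the mutant and 73.6% in wild type. Zfp810, with 9, had 56.0% in the mutant and 43.3% in wild type.

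Members also differed in how much sequence they share with other genes. In 73 members no 29-base stretch of the counted sequence occurred in a transcript of another gene, and their median in the mutant was -0.38, with 42 lower and 14 higher. Where over 5% of such stretches were shared (55 members), the median was -0.88, with 46 lower and 3 higher. In other genes the corresponding medians were 0.04, with 34.4% lower and 35.7% higher, and 0.07, with 34.5% lower and 38.4% higher. Zfp932 shared 77.0% of its stretches. No source used here states how the authors handled reads with more than 1 matching gene. Coding GC moved with this split, at a median of 56.9% in the first group and 42.0% in the second.

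By role, 9 of 13 members of the neural development list had fewer footprints per mRNA in the mutant and 3 had more (edgeR, SE with each value), where 35.5% of all genes tested had fewer and 35.6% more. The 6 of highest RNA level per kilobase were Zfp462 at -0.19 ± 0.08, Zfp219 at -0.76 ± 0.07, Zfp503 at 0.28 ± 0.07, Zfp292 at -0.85 ± 0.08, Zfp609 at -0.72 ± 0.08 and Zfp24 at 0.40 ± 0.07. Zfp503 is a corepressor of neuronal development, and Zfp24 is needed for myelination by oligodendrocytes. All 5 members of the list that guards imprints or silences retroelements had fewer. Zfp445 and Zfp57, which keep imprinted genes methylated, stood at -0.88 ± 0.06 and -1.24 ± 0.10. Zfp568, Zfp932 and Zfp708 stood at -0.49 ± 0.13, -2.89 ± 0.21 and -0.60 ± 0.18.

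Of 9 members that bind RNA or serve the ribosome, 4 were higher and 4 lower, which is near the shares of all genes. Of the 6 of highest level per kilobase, Zfp207 and Zfp622, a factor of large ribosomal subunit maturation, were higher, at 0.28 ± 0.06 and 0.56 ± 0.09. Zfp326, Zfp638 and Zfp106 were lower, at -0.25 ± 0.08, -0.73 ± 0.08 and -1.25 ± 0.06. Zfp598, the ubiquitin ligase that marks collided ribosomes, was lower too, at -1.20 ± 0.08. Of 11 members with roles in general transcription or pluripotency, 8 were lower and 1 was higher. Zfp91, Zfp410, Zfp131, Zfp148 and Zfp516 were lower, at -0.71 ± 0.07, -0.78 ± 0.08, -1.44 ± 0.10, -0.88 ± 0.11 and -0.21 ± 0.08. Zfp281, a regulator of pluripotent cells, stood at 0.11 ± 0.06 and did not pass.

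The comparison of genotypes asked whether the members' RNA and footprints differed in Eif3c mutants. In RNA, 0 of 250 members passed with edgeR, where 0.388% of all genes tested passed, and 12 were higher and 13 lower at an unadjusted p under 0.05, where 8.3% and 9.23% of all genes were. Their median log2 difference was 0.01, against 0.01 over all genes tested. Wild-type RNA chose the members, so nothing is read from these counts. In bulk samples, fewer cells of a type and less RNA per cell cannot be told apart. The smallest p among lower members was that of Zfp319, at 51.1, 51.5 and 48.4 CPM in mutant pools and 56.8, 62.7 and 65.2 CPM in wild-type pools. All its mutant pools were below all its wild-type pools (log2 difference -0.29 ± 0.08, edgeR adjusted p = 0.0954). Among higher members it was that of Zfp948, at 36.9, 36.1 and 29.8 CPM in mutant pools and 29.05, 26.1 and 23.8 CPM in wild-type pools (0.38 ± 0.11, edgeR adjusted p = 0.112). The next lower members by p were Zfp46, Zfp316, Zfp282 and Zfp827, at -0.28, -0.22, -0.21 and -0.27, and the next higher ones Zfp101, Zfp386, Zfp277 and Zfp160, at 0.27, 0.20, 0.27 and 0.22. None of these 8 passed (edgeR adjusted p from 0.115 for Zfp46 to 0.190 for Zfp160).

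In footprints, which the choice of members did not use, most members were lower in the mutant, though no single member passed. Of 250 members, 180 had a negative log2 difference and 70 a positive one, with a median of -0.16, against 0.01 over all genes tested. With edgeR 0 members passed, where 0.253% of all genes passed, and the smallest adjusted p was 0.0686. At an unadjusted p under 0.05, 79 members were lower and 21 higher, which is 31.6% and 8.4% of the members, against 11.1% and 11.7% of all genes. In 96 members all mutant pools were below all wild-type pools, where 14.8% of all genes had this pattern, and in 29 they were all above, where 14.4% did. With DESeq2, 19 members were lower, where 3.17% of all genes given an adjusted p were, and 6 higher, where 3.57% were. Without mutant pool 2, edgeR called 43 lower, where 9.49% of all genes were, and 4 higher, where 7.64% were.

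The 5 lower members of smallest p were all of low coding GC. Zfp667 (mm10 chromosome 7, 6286579 to 6307883), a KRAB gene, had 8.74, 10.1 and 9.34 footprint CPM in mutant pools and 13.5, 13.6 and 14.7 CPM in wild-type pools. Its log2 difference was -0.57 ± 0.11 (SE, edgeR adjusted p = 0.0686). Zfp974 had 6.24, 8.03 and 6.07 CPM in mutant pools and 10.8, 9.99 and 10.9 CPM in wild-type pools (-0.65 ± 0.14, edgeR adjusted p = 0.0789). Like Zfp667, it had no overlap between genotypes, though 44.7% of its 29-base stretches were shared with other genes. Zfp558 had 4.73, 5.90 and 5.67 CPM in mutant pools and 9.27, 7.55 and 9.14 CPM in wild-type pools (-0.68 ± 0.15, edgeR adjusted p = 0.0789). Zfp157 and Zfp68 stood at -0.40 ± 0.09 each (edgeR adjusted p = 0.0789 and 0.0854), and their mutant pools were again all below their wild-type pools. Coding GC ran from 41.0% in Zfp558 to 42.8% in Zfp667 among these 5.

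The 5 higher members of smallest p had more GC than these. Zfp219 (mm10 chromosome 14, 52006077 to 52020733) had 147, 156 and 138 footprint CPM in mutant pools and 118, 119 and 108 CPM in wild-type pools (0.35 ± 0.07, edgeR adjusted p = 0.0787). Zfp771 had 30.4, 25.9 and 29.1 CPM in mutant pools and 21.1, 20.6 and 21.9 CPM in wild-type pools (0.42 ± 0.10, edgeR adjusted p = 0.0794). In both, every mutant pool was above every wild-type pool. Zfp568, a KRAB gene that silences a placental transcript of Igf2, had 28.8, 20.1 and 25.9 CPM in mutant pools and 18.4, 16.9 and 16.3 CPM in wild-type pools (0.53 ± 0.13, edgeR adjusted p = 0.0932). Zfp692 and Zfp516 stood at 0.46 ± 0.12 and 0.34 ± 0.09 (edgeR adjusted p = 0.0944 and 0.102). Coding GC was 64.6% in Zfp219, 57.6% in Zfp692 and 60.7% in Zfp516. With offsets for coding GC, Zfp219, Zfp771 and Zfp516 moved to 0.16, 0.17 and 0.21, and Zfp568 and Zfp692 to 0.55 and 0.39. Among the lower members Zfp157 and Zfp68 moved to -0.26 and -0.25, and Zfp667, Zfp974 and Zfp558 to -0.43, -0.50 and -0.52.

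**Figure D3:**
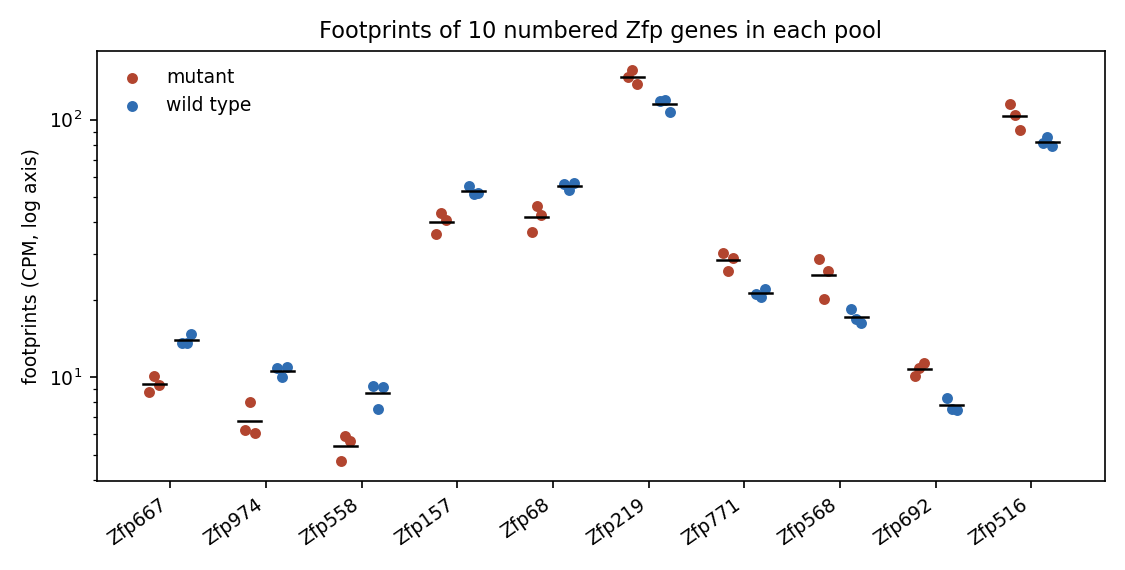
Footprints (CPM, log axis) of the 5 lower and the 5 higher numbered Zfp genes of smallest p, with a point for each of 3 mutant and 3 wild-type pools and a bar at each mean. In all 10 the pools of the genotypes do not overlap, and none passes the adjusted threshold.

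The footprint difference followed coding GC, in members and in other genes alike. The members' median was -0.27 under 45% GC, -0.20 from 45 to 51%, -0.06 from 51 to 57% and 0.12 at 57% and over. In other genes the medians were -0.13, -0.06, 0.03 and 0.15 in the same classes. RNA ran the other way and less far, at 0.08, -0.02, -0.03 and -0.03 in members and 0.09, 0.04, -0.00 and -0.03 in other genes. All 3 mutant pools were below all wild-type pools in 49 of 84 members under 45% GC, where 27.5% of other genes in that class were, and above in 0, where 2.33% were. At 57% and over they were below in 2 of 60 members, where 5.03% of other genes were, and above in 25, where 25.8% were. Spearman's rho between coding GC and the footprint difference was 0.74 over 236 members and 0.42 over 12514 other genes. These points share the same 6 libraries, and whether the trend came from library preparation or from the mutation was not tested.

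**Figure D4:**
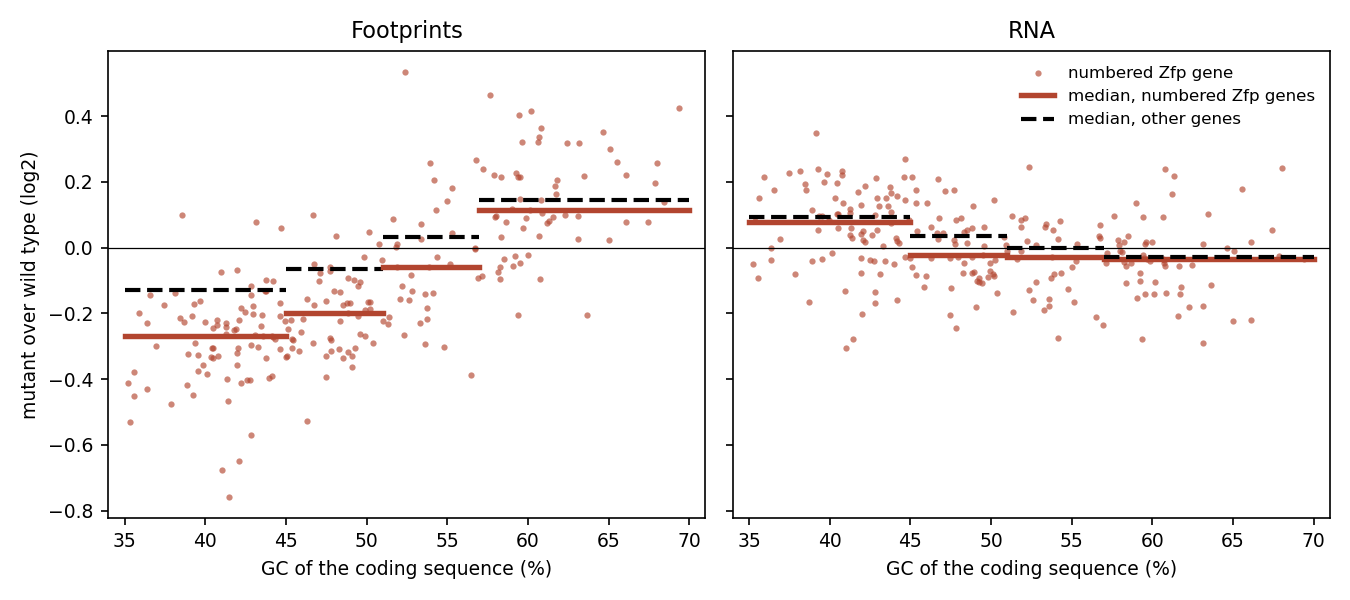
Log2 difference of mutant over wild type (y) in footprints (left panel) and RNA (right panel) against coding GC (percent, x), with a point for each numbered Zfp gene and lines for medians in 4 classes of GC. The footprint medians run from -0.27 under 45% GC to 0.12 at 57% and over, and the RNA medians from 0.08 to -0.03.

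The trend was present in each mutant pool and strongest in pool 1. Relative to the wild-type mean, the median footprint level of members under 45% GC was -0.41, -0.20 and -0.20 in mutant pools 1, 2 and 3, and 0.04, -0.05 and 0.01 in wild-type pools 1, 2 and 3. For members at 57% and over it was 0.16, 0.14 and 0.09 in mutant pools and 0.00, -0.00 and -0.01 in wild-type pools. The mutant and wild-type pools did not overlap in either class, though wild-type pools are held near 0 because their own mean is the reference. Other genes had no overlap either. Their mutant pools stood at -0.26, -0.06 and -0.06 under 45% GC and 0.19, 0.08 and 0.08 at 57% and over. Their wild-type pools stood at 0.03, -0.03 and 0.00, and at -0.02, 0.01 and 0.01. In RNA, members under 45% GC stood at -0.01, 0.19 and 0.01 in mutant pools, where pool 2 was apart, and -0.01, -0.01 and 0.01 in wild-type pools. Mutant pool 1 was also the pool with the highest erythroid, endothelial and mesenchyme markers. Its footprint library came from run 2 alone, while the other libraries summed both runs, and the part of this was not tested. With all lanes summed, the members' median footprint difference was -0.15. Without mutant pool 1 the members' median footprint difference was -0.13, and with GC offsets as well it was -0.09.

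**Figure D5:**
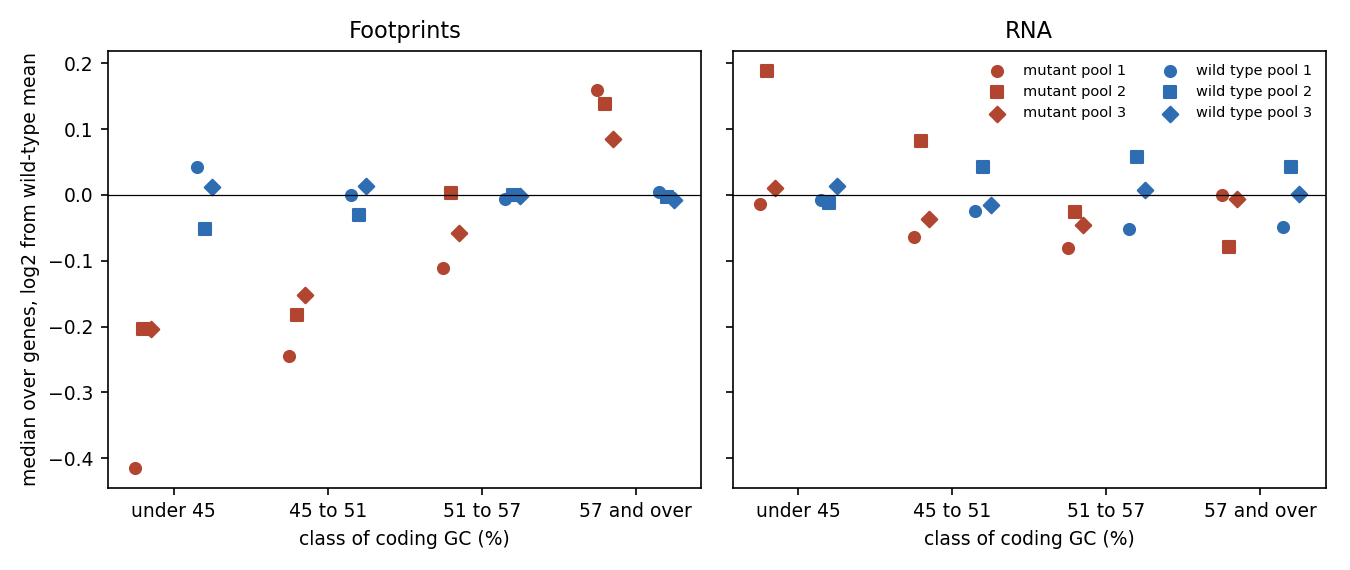
Median over numbered Zfp genes of the log2 level relative to the wild-type mean (y), in footprints (left panel) and RNA (right panel), by class of coding GC (percent, x), with a marker for each pool. In footprints the mutant pools lie between -0.41 and -0.20 under 45% GC and between 0.09 and 0.16 at 57% and over, while wild-type pools stay within -0.05 and 0.04 in these classes.

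Translational efficiency, the genotype difference in footprints per mRNA, gave 0 members with edgeR, where 0% of all genes tested passed, and at an unadjusted p under 0.05 there were 56 lower and 22 higher members, where 4.07% and 5.77% of all genes were lower and higher. DESeq2 called 0 higher, where 0.115% of all genes were, and 2 lower, where 0.0288% were. The smallest p among higher members were those of Zfp219, Zfp516, Zfp282, Zfp771 and Zfp628, at 0.37, 0.39, 0.32, 0.48 and 0.51 (edgeR adjusted p = 0.430 for each). Among lower members they were those of Zfp948, Zfp101, Zfp266, Zfp68 and Zfp974, at -0.86, -0.51, -0.38, -0.44 and -0.66 (edgeR adjusted p from 0.278 to 0.430). With offsets for coding GC the higher ones moved to 0.13 in Zfp219, 0.20 in Zfp516, 0.12 in Zfp282, 0.18 in Zfp771 and 0.30 in Zfp628, and Zfp628 was 0.32 without mutant pool 2. The same offsets moved Zfp266, Zfp68 and Zfp974 to -0.16, -0.19 and -0.42. Zfp948 and Zfp101 stood at -0.87 and -0.53 in that fit. They have no coding GC here, so the offsets could not adjust them by GC and nothing is read from their values. The members' median was -0.12, against 0.02 over all genes tested. A fit with the pool as a block suits the design because a pool's RNA and footprints were taken from the same cells. It called 113 of all genes tested in either direction, of which 42 fell (0.303% of all genes). With so few genes called, a count of 0 rising members says little. In that fit 10 members fell and 0 rose. They were Zfp948 (-0.83 ± 0.15, edgeR adjusted p = 0.0222), Zfp101, Zfp788, Zfp606, Zfp711, Zfp68, Zfp157, Zfp60, Zfp638 and Zfp266, the last at -0.37 ± 0.08 (edgeR adjusted p = 0.0433). Those with a coding sequence, 8 in number, were all under 45% GC. Wild-type RNA is a term of this contrast and chose the members, so nothing is read from the count. Zfp266 had log2 footprints per mRNA of -0.26, -0.32 and -0.11 in mutant pools and 0.21, 0.09 and 0.13 in wild-type pools, with no overlap. Zfp638, an RNA-binding protein that silences retroviral DNA, had 254, 308 and 295 footprint CPM in mutant pools and 371, 338 and 372 CPM in wild-type pools.

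Members on chromosome 17, whose coding GC was low (median 39.2%, 32 members), had a median footprint difference of -0.25, and those on chromosome 7 (median GC 50.2%, 64 members) had one of -0.12. Members with a KRAB-type box had a median of -0.24 and those without one a median of -0.05. Lower footprints were shared by like genes outside the numbered Zfp group: other genes with the box had a median of -0.17 (107 genes). Genes named Zkscan or Zscan had one of -0.12, with 13 of 20 negative. In Zbtb genes it was -0.07, with 24 of 39 negative, and in Klf, Sp and Zic genes 0.08, with 11 of 28 negative. Under 45% GC the medians were -0.27 for 56 members with the box and -0.27 for 28 without it, and from 45 to 51% they were -0.26 for 30 with the box and -0.15 for 25 without it. The difference was not tested. In members with no shared 29-base stretch the median was 0.01 over 73 members, whose GC was high, and -0.27 over the 10 of them under 45% GC.

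The genes through which KRAB proteins repress were read as a list of 19. So few of all genes passed between genotypes that a count of 0 in this list says little. Of 19 corepressor and heterochromatin genes, 0 passed in RNA, where 0.388% of all genes passed, and 0 in footprints, where 0.253% did (edgeR), with median differences of 0.02 in RNA and -0.07 in footprints. The smallest p in footprints were those of Smarcad1 (-0.31 ± 0.07, edgeR adjusted p = 0.0808), a chromatin remodeller, Morc2a (-0.26 ± 0.06), Fam208a (-0.33 ± 0.08), a subunit of the HUSH silencing complex, and Atf7ip (-0.27 ± 0.07). The next by p went the other way, Cbx3 at 0.49 ± 0.12 and Uhrf1 at 0.47 ± 0.13. Over the list, 12 footprint differences were negative and 7 positive. Of the 19, 11 had more footprints per mRNA in the mutant, where 35.6% of all genes did, and 4 had fewer, where 35.5% did.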

How the data were processed

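The authors deposited raw read counts for every lane, one row for each transcript and each part of it. Per the submitters' processing notes, cutadapt, STAR and bedtools were used with mm10; no source used here gives versions, strand handling or how multiply matching reads were counted. Counted coding rows start 15 codons after the whole coding rows and end 5 codons before them. Lanes and runs (2 runs of 4 lanes) were summed, leaving out 4 incomplete lane columns of mutant footprint pool 1. These were all of its run 1 lanes, so that library holds run 2 only. For each gene the transcript with the highest count was kept; identifiers were matched to GENCODE vM21 (121271 of 122941 with version, 1522 without).

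RNA and footprints (6 libraries each) and the 12-library fit were tested with edgeR 4.0.16 in R 4.3.3 (quasi-likelihood test, TMM, filterByExpr with minimum count 10 and minimum total 15, Benjamini-Hochberg adjustment over all genes, threshold 0.05). The SE was calculated back from the log2 change and the F statistic. CPM are TMM-scaled, and 0.5 CPM was added before taking log2 for single pools. DESeq2 1.42.0, RLE factors, no filter, replicate blocks, GC offsets (lowess span 0.3), other count regions, transcripts and members, and each pool left out were alternatives. The fits were also run on simulated counts, which held no GC trend and no pool effect. For footprints per mRNA only the size of the estimates was checked there, not the calls. All 250 members passed the filter.

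Coding GC, C2H2 and KRAB-type patterns and upstream ATGs came from GENCODE vM21 transcripts, for 236 members. RNA and footprint libraries of 1 pool came from the same cells, per the labels' protocols, and their deviations from group means correlated at 0.57, 0.49 and 0.27 in the mutant and 0.21, 0.23 and 0.32 in wild type.

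The members and lists were chosen with earlier results of these data known. Named were members past the threshold (up to 10 per direction by size, or the 5 of smallest p), the 10 of highest level, the 8 with most and fewest footprints per mRNA, the role lists with up to 6 examples by level and the corepressor genes of smallest p.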

Additional observations from a re-analysis of the deposited data

How the results depend on the processing

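The counts of members called depended on the fit. In footprints, DESeq2 called 6 higher and 19 lower and edgeR with no low-count filter called 4 lower, in place of 0. Leaving out 1 pool gave 0 to 4 higher and 0 to 43 lower in footprints, and 0 to 1 higher and 0 to 7 lower in RNA. These calls were made without mutant pool 2, and the cause was not tested. In footprints that fit called 9.49% of all genes lower and 7.64% higher. Shares of all genes are not given for the fit with no filter or for RNA without mutant pool 2. Nothing is therefore read from the member counts of those fits. In translational efficiency DESeq2 called 2 lower and the replicate block 10 lower, and no other fit called any. The block changed no other call or count by over 1.5 times. Across genotypes the same pool number correlated at 0.10, 0.05 and 0.06 in RNA and -0.09, -0.10 and -0.05 in footprints. Unlike numbers correlated at -0.09 to 0.03 in RNA and -0.04 to 0.11 in footprints. The labels do not say what a number shared by mutant and wild-type pools means, so whether the numbers pair them is not known.

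The median in translational efficiency, -0.12, was -0.048 with GC offsets, -0.068 with GC offsets without mutant pool 1, and -0.17 to -0.10 when 1 pool was left out. The median of footprints per mRNA in the mutant, -0.60, was -0.42 with GC offsets, -0.45 with those offsets without mutant pool 1, -0.62 with whole coding sequences, -0.64 over all numbered Zfp genes that pass the filter, and -0.63 to -0.59 when 1 pool was left out. In the 73 members with no shared 29-base stretch it was -0.38, with 14 higher and 42 lower, and their footprint median was 0.011 in place of -0.16; this choice and GC offsets without mutant pool 1 were added after seeing the data. The footprint median stayed between -0.18 and -0.13 when 1 pool was left out and was -0.10 with GC offsets. The members' median RNA level lay at the 49.6th percentile of all genes per kilobase and at the 54.9th without length.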
